A study of Homo sapiens with 3 samples.

Results

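Cells hold to the matrix around them through integrins, surface receptors that pair an alpha subunit with a beta subunit, and the matrix they hold to is built largely of laminins and collagens. Laminins are trimers of an alpha, a beta and a gamma chain that form, with collagen IV, the sheet called the basement membrane under an epithelium. Collagens are triple helices of alpha chains, and their classes run from the fibrils of connective tissue to network-forming and membrane-spanning types. In the prostate, basal epithelial cells sit on a basement membrane containing laminin-332 and are anchored to it by the integrins alpha3beta1 and alpha6beta4. The genes of these 3 families were chosen by name alone, as every protein-coding gene listed under an integrin alpha or beta, laminin or collagen symbol. There were 82 such genes among the 58735 listed genes, made up of 18 integrin alpha, 8 integrin beta, 12 laminin and 44 collagen genes.

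RNA-seq libraries were made from DU145, an established line of androgen-independent prostate cancer cells, and the question was how gene expression differs when PD-L1, a ligand on the cell surface that restrains T cells, is knocked down. There was 1 control library, from cells carrying the empty pLKO.1 lentiviral vector, and 2 libraries labelled PD-L1 knockdown, from cells carrying pLKO.1 with shRNA 1 or shRNA 2. All cells were stable lines in serum-containing medium, so each library is 1 line and the hairpins differ between the knockdown libraries. The labels and the study's methods name different media, the series text names another cell line (BCPAP), and RBM45 stands in the column heading of the control's counts.

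CD274 (ENSG00000120217), the gene of PD-L1 and thus the check of the labels, had 204 counts in the control, 213 in library 1 and 224 in library 2, as the libraries labelled PD-L1 knockdown 1 and 2 are called from here. Its ratio to the control was 1.05 (95% interval 0.861 to 1.28) and 1.03 (0.845 to 1.25). CD274 was therefore not lower, and every direction given here is that of the libraries labelled PD-L1 knockdown, not of a measured loss of PD-L1 mRNA. The study checked the knockdown in DU145 cells by Western blot of the PD-L1 protein, which RNA-seq does not measure. The count totals were 14733088, 14738298 and 15786457. Epithelial markers were all counted (KRT8, KRT18, KRT19, EPCAM and CDH1 sum to 32106, 34994 and 37979 counts). The prostate luminal markers KLK3, KLK2 and TMPRSS2 were at 0 in every library, where 3 counts would be 0.190 to 0.204 CPM (counts scaled to the library total). The fibroblast markers, which belong to the main collagen-making cells of tissue, summed to 1, 4 and 4 counts, with DCN and LUM at 0. The leukocyte markers summed to 18, 15 and 13 counts, with CD3E at 0, the endothelial markers to 4, 12 and 9 counts, and the platelet markers to 0, 1 and 0 counts.

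Of the 82 genes, 10 had no count in any library, 13 had counts but fewer than 10 in all, and 59 were tested with edgeR's quasi-likelihood test. Together the genes took 0.715% of the control's counts, 0.703% in library 1 and 0.772% in library 2. None of the 59 passed an adjusted p of 0.05, against 0.247% of all 19849 tested genes called higher and 0.106% called lower at that threshold. DESeq2, run as an alternative, also called 0 members at the adjusted p, where it called 6 of all genes. It gave 3 members at an unadjusted p under 0.05, for which the share over all genes is not given here, so this count is not read further. By edgeR's unadjusted p under 0.05, 4 were higher (COL6A1, ITGB4, COL18A1 and COL4A2) and 4 were lower (ITGAV, ITGB8, COL24A1 and ITGA1). These are 6.78% of the tested members in each direction, where all tested genes gave 6.82% higher and 4.92% lower. The median log2 fold change of the members was 0.065, against 0.0015 over all tested genes. Setting COL24A1 at a floor of 3 counts in library 2 could not move this median, because the gene stays below it either way. The median of the members was 0.13 without library 1, 0.0063 without library 2 and 0.034 with the GC trend removed. By family the medians were 0.013 for integrin alpha, 0.13 for integrin beta, 0.037 for laminin and 0.11 for collagen genes. Without library 1 or library 2, in that order, they were 0.18 and -0.032 for integrin alpha, 0.15 and 0.040 for integrin beta, 0.11 and 0.011 for laminin, and 0.034 and 0.031 for collagen genes. With the GC trend removed the collagen median was 0.033.

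The sequences upstream of 4 members near opposite ends of the range of base composition of the transcripts are shown. By the edgeR test COL18A1 was higher and ITGAV and ITGA1 were lower at an unadjusted p under 0.05. COL6A2 did not reach that threshold (edgeR unadjusted p = 0.0676). The sequences come from RefSeq (GRCh38.p14), where 58 of the 82 genes were matched, COL6A1 and ITGB4 not among them. The window of COL24A1, also lower, is not shown. Bases that GENCODE annotates as exonic in any transcript were left out. Capitals mark the GC box (GGGCGG), the CCAAT box (CCAAT) and the TATA box (TATAAA) on either strand, and overlapping matches were counted separately. The window of COL18A1 lies at chr21:45404987-45405136 and that of COL6A2 at chr21:46097947-46098096. The window of ITGAV lies at chr2:186589906-186590055 and that of ITGA1 at chr5:52787746-52787895. All 4 are on the plus strand and are written 5′ to 3′.
COL18A1: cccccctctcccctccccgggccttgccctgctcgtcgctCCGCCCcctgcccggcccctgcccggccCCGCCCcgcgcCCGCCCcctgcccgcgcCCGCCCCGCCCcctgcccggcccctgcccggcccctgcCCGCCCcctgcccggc
COL6A2: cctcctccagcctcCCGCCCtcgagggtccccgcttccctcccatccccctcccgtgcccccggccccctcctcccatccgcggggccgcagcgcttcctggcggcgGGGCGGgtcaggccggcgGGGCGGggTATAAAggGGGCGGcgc
ITGAV: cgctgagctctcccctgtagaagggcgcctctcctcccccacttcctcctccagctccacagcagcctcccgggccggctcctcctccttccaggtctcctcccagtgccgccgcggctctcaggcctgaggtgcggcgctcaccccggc
ITGA1: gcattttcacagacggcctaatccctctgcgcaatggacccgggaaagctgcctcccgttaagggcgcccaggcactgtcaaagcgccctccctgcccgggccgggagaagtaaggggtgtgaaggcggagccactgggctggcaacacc

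The COL18A1 window held 6 GC boxes and the COL6A2 window held 4 and a TATA box. The ITGAV and ITGA1 windows held none of these letters. These 4 windows belong to members near opposite ends of transcript GC content, and whether such boxes go with a direction was not tested. Over the 24 members with a window and a mean of at least 100 counts, upstream GC content and log2 fold change had a Pearson's r of 0.10. The base composition of the windows was 89.3% GC in COL18A1, 80.0% in COL6A2, 72.0% in ITGAV and 64.7% in ITGA1. Over the 250 bases before the start, a GC box was found in 31 of the 58 matched members and in 42.6% of the 35116 windows of all genes. A CCAAT box was found in 13 members and in 32.0% of all windows. A TATA box was found in 6 members and in 10.7% of all windows.

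Among the integrin alpha subunits, ITGA3, which pairs with ITGB1 to bind laminin, had the highest level per length. Its deposited FPKM (counts scaled to gene length and to the size of the library) was 120 in the control, 122 in library 1 and 144 in library 2, which was 62.1% to 66.7% of the summed FPKM of the alpha subunits. ITGA6, the other main laminin-binding subunit, had FPKM of 23.6, 21.8 and 23.2. ITGA5, the fibronectin-binding partner of ITGB1, had FPKM of 11.7, 12.2 and 14.5. ITGA3 thus stood well above the next alpha subunits in every library.

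ITGB1, the beta subunit shared by most matrix-binding integrins, had FPKM of 318, 296 and 300 and gave 84.8% to 88.2% of the FPKM of the beta subunits. ITGB1 ranked 55 among all listed genes by mean FPKM. Its ratio to the control was 0.930 (0.914 to 0.945) and 0.938 (0.922 to 0.953), so its counting intervals lay below 1 in both libraries, but its fitted log2 fold change was -0.10 ± 0.10 (SE, adjusted p = 0.742) and became 0.068 with the GC trend removed. Intervals of this kind cover counting error only and do not hold the spread between cultures. Of ITGB1's 31-base words 9.99% occur in another gene, so part of its counts could belong to copies.

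**Figure D1:**
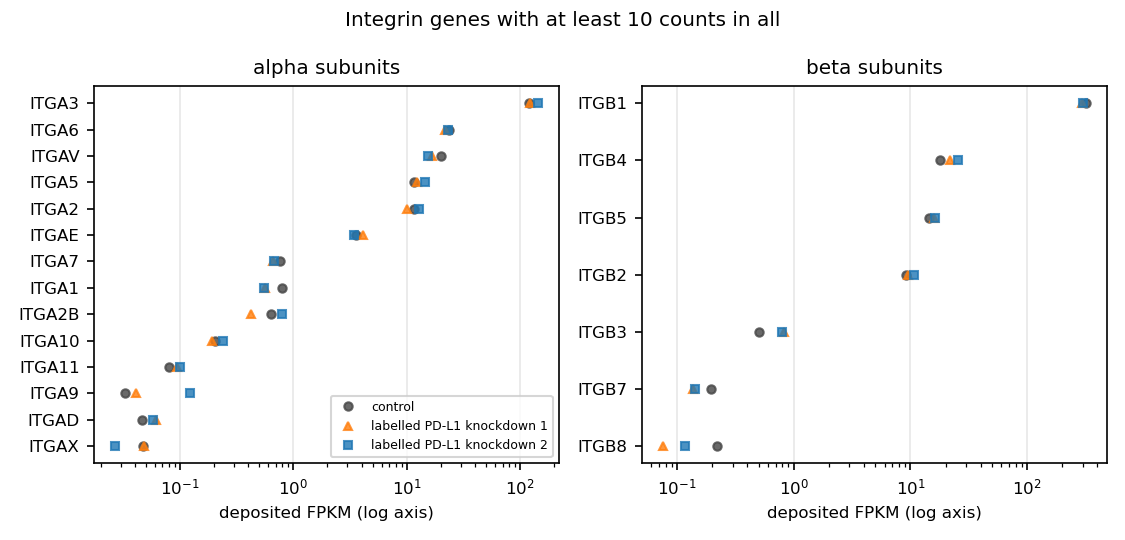
Deposited FPKM (log axis) of each integrin gene with at least 10 counts in all, alpha subunits on the left and beta subunits on the right, with circles marking the control, triangles library 1 and squares library 2. ITGA3 (120 to 144) and ITGB1 (296 to 318) lie far to the right of the other subunits in all 3 libraries, and the 3 points of most genes lie close together compared with the distance between genes.

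ITGB4 (ENSG00000132470, chromosome 17 from 75721328 to 75757818, plus strand) pairs with ITGA6 alone and ties laminin to keratin filaments through hemidesmosomes. It had 1804, 2178 and 2737 counts, the control being the lowest library. Its log2 fold change was 0.40 ± 0.12 (SE, unadjusted p = 0.00123, adjusted p = 0.124). Its ratio to the control was 1.21 (1.14 to 1.29) and 1.42 (1.33 to 1.50), so the libraries labelled PD-L1 knockdown also differed from each other. The FPKM of ITGA6 over that of ITGB4 was 1.31 in the control and 0.999 and 0.904 in the other libraries. With the trend over GC content removed, the log2 fold change of ITGB4 was 0.20 (adjusted p = 0.679).

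ITGAV (ENSG00000138448, chromosome 2 from 186590065 to 186680901, plus strand) binds ligands with the RGD motif, such as vitronectin, in pairs with ITGB1, ITGB3, ITGB5, ITGB6 or ITGB8. It had 2453, 2022 and 1997 counts, the control being the highest library. Its log2 fold change was -0.33 ± 0.12 (SE, unadjusted p = 0.00513, adjusted p = 0.212), with ratios of 0.828 (0.780 to 0.878) and 0.760 (0.716 to 0.807), and was -0.16 with the GC trend removed. Of its partners, ITGB5 had 1390, 1507 and 1655 counts (log2 fold change 0.14 ± 0.13, SE, adjusted p = 0.706). The FPKM of ITGB5 over that of ITGAV was 0.722, 0.949 and 1.06, so the order of these subunits differed between the control and library 2. ITGB3 had 33, 54 and 55 counts, but 51.6% of its exonic bases lie in an overlapping gene on the same strand (AC068234.1, listed at 0), which makes its counts uncertain. ITGB6 had 1, 0 and 7 counts and was not tested.

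ITGB8 (ENSG00000105855, chromosome 7), which with ITGAV binds latent TGF-beta, had 50, 17 and 28 counts. ITGA1 (ENSG00000213949, chromosome 5 from 52787896 to 52959210, plus strand), a collagen-binding subunit, had 220, 154 and 163 counts. In both genes the control was the highest library. The log2 fold change was -1.20 ± 0.44 (SE, adjusted p = 0.231) for ITGB8 and -0.52 ± 0.21 (SE, adjusted p = 0.286) for ITGA1. With the GC trend removed these were -1.06 and -0.29. PELO overlaps 5.63% of ITGA1's exonic bases on the same strand. ITGA2, the other collagen-binding subunit with many counts, had 1376, 1169 and 1608 counts and so no common direction. The FPKM of ITGA2 over that of ITGA1 was 14.7, 17.8 and 23.2.

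ITGB8 and COL24A1 were the only members past an unadjusted p of 0.05 with an absolute log2 fold change above 1, both lower. That is 3.39% of the tested members, against 0.942% of all tested genes lower, and 0 members were higher against 1.54% of all tested genes.

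ITGB2, the beta subunit of the leukocyte integrins, had 928, 950 and 1145 counts (FPKM of 9.20, 9.45 and 10.7), whereas its alpha partners, named here after their values were seen, were close to absent. ITGAL was at 0 in every library, ITGAM had 0, 1 and 3 counts, ITGAX 5, 5 and 3, and ITGAD 3, 4 and 4. ITGAE showed the reverse, with 354, 406 and 357 counts beside 13, 9 and 10 counts of ITGB7, its only partner. The counts of ITGB7 are uncertain, because 42.1% of its exonic bases overlap ZNF740 (693, 754 and 825 counts) on the opposite strand, and 7.59% of ITGAE's overlap HASPIN. Of 24 known integrin pairs, 18 had both subunits tested and 8 had both at a mean of at least 100 counts. These 8 were ITGB1 with ITGA1, ITGA2, ITGA3, ITGA5, ITGA6 and ITGAV, ITGB4 with ITGA6, and ITGB5 with ITGAV.

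Among the laminins LAMB3, the beta chain of laminin-332, had the highest level per length. It had FPKM of 129, 140 and 156, which was 83.6% to 84.5% of the FPKM of the beta chains. LAMA3 had FPKM of 36.2, 34.3 and 38.0. The FPKM of LAMB3 thus exceeded that of LAMA3, the alpha chain of its trimer, by 3.55, 4.08 and 4.11 times. This excess depends on the listed gene lengths, 4688 bases for LAMB3 and 14678 for LAMA3. In counts the genes were closer, LAMA3 having 7899, 7439 and 8821. LAMB3 had 8965, 9703 and 11569 counts, and its ratio to the control was 1.09 (1.06 to 1.12) and 1.21 (1.17 to 1.24), with a log2 fold change of 0.20 ± 0.11 (SE, adjusted p = 0.472).

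Other abundant chains were LAMC1, the gamma chain of most laminins, with FPKM of 53.3, 50.8 and 55.5, and LAMA5 with 34.3, 34.3 and 41.0. LAMA5 and LAMA3 were close in level and gave 43.7% to 47.8% and 44.4% to 46.1% of the alpha-chain FPKM. LAMA1, the alpha chain of embryonic laminin, had 1755, 1598 and 1546 counts, with ratios of 0.915 (0.854 to 0.979) and 0.823 (0.768 to 0.881) and a log2 fold change of -0.20 ± 0.12 (SE, adjusted p = 0.530). An antisense transcript (AP002409.1) overlaps 11.1% of its exonic bases. LAMA4, found in vessel walls, had 2, 0 and 1 counts, and LAMB4 had none. Of 11 laminin trimers, 7 had every chain at a mean of at least 100 counts.

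**Figure D2:**
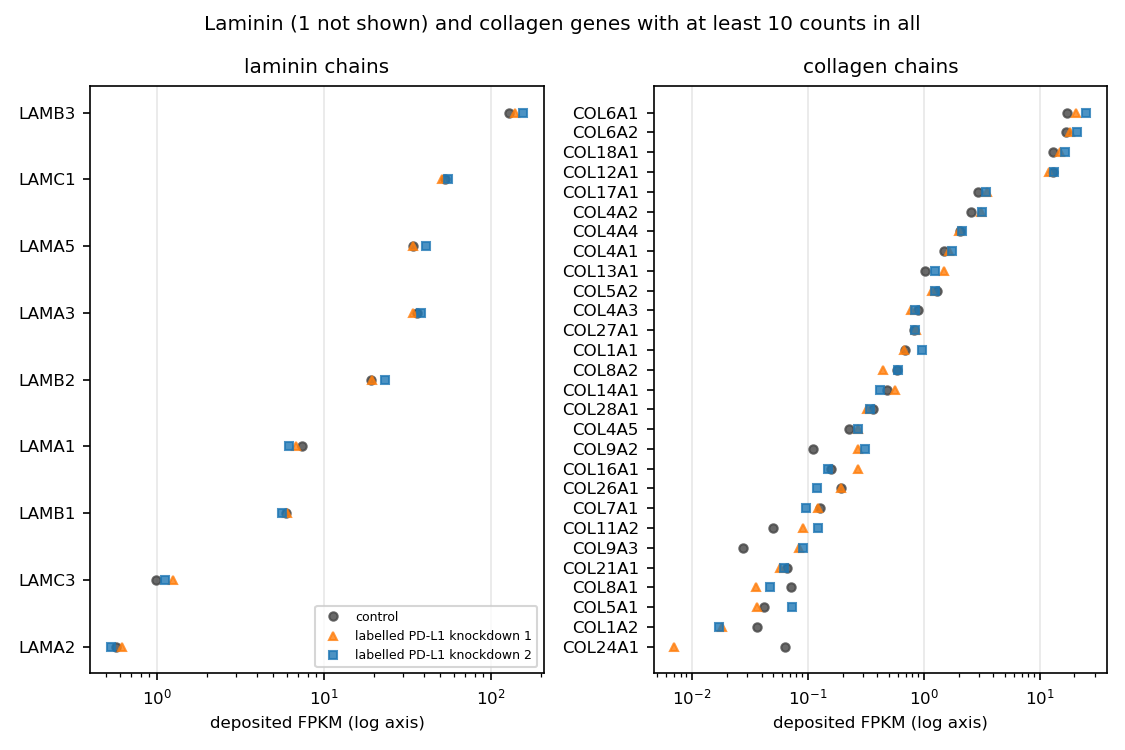
Deposited FPKM (log axis) of laminin chains (left, 1 not shown) and collagen chains (right) with at least 10 counts in all, with circles marking the control, triangles library 1 and squares library 2. LAMB3 (129 to 156) leads the laminins and COL6A1 (17.1 to 25.3) the collagens. COL24A1 was at 0 in library 2, which a log axis cannot show.

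Of the 44 collagen genes 7 had no count in any library, 9 had fewer than 10 counts in all and 28 were tested. COL6A1, COL6A2, COL18A1 and COL12A1 had the highest levels per length. COL6A1 (ENSG00000142156, chromosome 21 from 45981737 to 46005050, plus strand), a chain of the beaded filaments of collagen VI, had 1359, 1619 and 2140 counts. Its log2 fold change was 0.42 ± 0.13 (SE, unadjusted p = 0.000974, adjusted p = 0.115), the lowest p of any member. Its ratio to the control was 1.20 (1.11 to 1.29) and 1.47 (1.37 to 1.58), intervals that do not meet. With the GC trend removed the log2 fold change was 0.22 (adjusted p = 0.670).

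COL6A2, the chain that assembles with COL6A1, had 1341, 1471 and 1791 counts. Its log2 fold change was 0.23 ± 0.13 (SE, adjusted p = 0.469) and became -0.012 with the GC trend removed. The FPKM of COL6A1 over that of COL6A2 was 1.02, 1.11 and 1.20. The chains that complete collagen VI were at or near 0, since COL6A3 and COL6A5 had no count and COL6A6 had 2, 2 and 0 counts. At least 1 chain was also scarce in collagen I, the main collagen of connective tissue, where COL1A1 had 101, 98 and 149 counts and COL1A2 had 6, 3 and 3 counts.

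COL18A1 (ENSG00000182871, chromosome 21 from 45405137 to 45513720, plus strand), the basement membrane collagen whose end fragment is endostatin, had 1646, 1902 and 2226 counts, the control being lowest. Its log2 fold change was 0.28 ± 0.12 (SE, unadjusted p = 0.0245, adjusted p = 0.351) and 0.034 with the GC trend removed. SLC19A1 overlaps 16.4% of its exonic bases on the opposite strand and had 1407, 1430 and 1510 counts. COL12A1, which binds along collagen fibrils, had 2399, 2208 and 2628 counts (log2 fold change -0.038 ± 0.12, SE, adjusted p = 0.936, and 0.032 with the GC trend removed). COL17A1, the membrane-spanning collagen of hemidesmosomes, had 312, 366 and 388 counts (log2 fold change 0.23 ± 0.18, SE, adjusted p = 0.650). COL24A1 (ENSG00000171502, chromosome 1), a fibrillar collagen, had 9, 1 and 0 counts, which is at least 3.21-fold lower in library 2 against a floor of 3 counts in that library. In library 1 its ratio was 0.112 with a wide interval (0.00255 to 0.805).

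The collagen IV genes lie in head-to-head pairs, with starts in RefSeq that are 126 bases apart for COL4A1 and COL4A2, 418 for COL4A4 and COL4A3, and 379 for COL4A6 and COL4A5. The bases between the starts of COL4A1 and COL4A2 were 80.2% GC and held 1 GC box and 1 CCAAT box. COL4A2 (ENSG00000134871) had 728, 900 and 976 counts (log2 fold change 0.32 ± 0.14, SE, unadjusted p = 0.0255, adjusted p = 0.353, and 0.27 with the GC trend removed). Its neighbour COL4A1 had 327, 362 and 406 counts (log2 fold change 0.18 ± 0.18, SE, adjusted p = 0.722). The control was the lowest library for both. COL4A3 had 120, 106 and 122 counts and COL4A4 had 308, 303 and 338 counts, with no difference beyond the SE. COL4A5 had 40, 48 and 51 counts and COL4A6 had 3, 1 and 3. Within the pairs the FPKM of COL4A2 exceeded that of COL4A1 by 1.70, 1.90 and 1.84 times, and that of COL4A4 exceeded that of COL4A3 by 2.32, 2.59 and 2.51 times.

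The exact 95% counting intervals of both ratios lay above 1 for 7 of the 59 tested members, COL4A2, COL6A1, COL6A2, COL18A1, ITGB4, ITGB5 and LAMB3. They lay below 1 in both libraries for 6, COL24A1, ITGA1, ITGAV, ITGB1, ITGB8 and LAMA1. These are 11.9% and 10.2% of the tested members, against 10.3% and 8.69% of all tested genes, so the shares lie near the background. Both ratios were taken to the same control library, so an unusual count in that library moves both the same way.

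**Figure D3:**
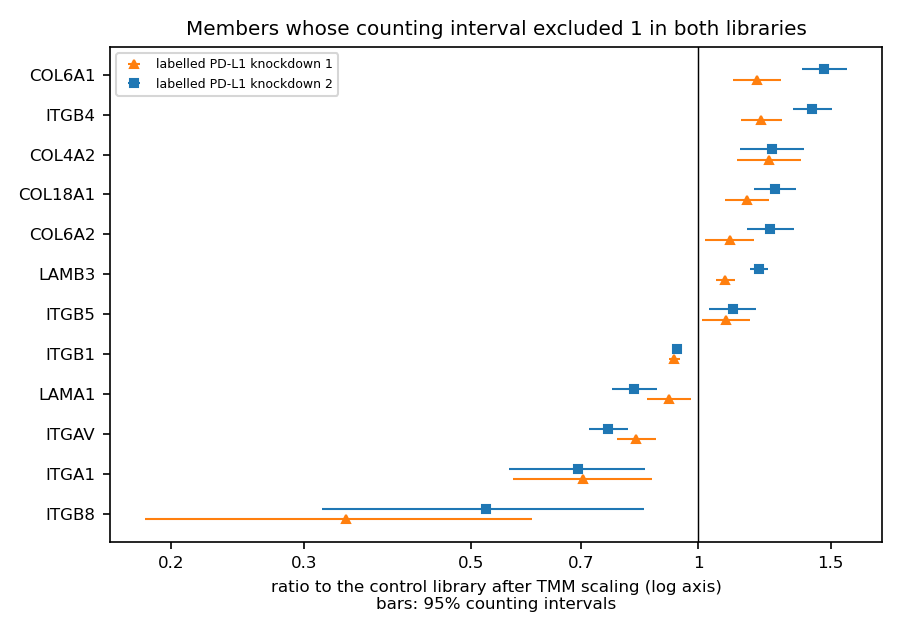
Ratio to the control library after TMM scaling (log axis) for the 12 members with counts in every library whose 95% counting interval excluded 1 on the same side in both libraries, with triangles marking library 1 and squares library 2. Of these, 7 lie to the right of 1 and 5 to the left. ITGB8 has the widest intervals, and the fitted direction of ITGB1 and COL6A2 turned with the GC trend removed.

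The 33 members with a mean of at least 100 counts were ordered by the base composition of their transcripts. All 17 members above 54.0% GC had a log2 fold change above 0, as did 4 of the 11 between 45.1% and 54.0%, and none of the 5 below. Of all genes at that count the share above 0 was 87.3%, 50.4% and 16.5% in the same classes. The 4 members higher at an unadjusted p under 0.05 had 54.5% to 66.9% GC, and the 4 lower had 37.8% to 47.9%. Across the 33 members Pearson's r of log2 fold change and GC content was 0.82 and Spearman's rho 0.83, and over all 10859 genes at that count they were 0.64 and 0.68. Genes are not independent replicates, and all points share the same 3 libraries. Over the 24 of these members with a RefSeq window, r was 0.10 for the GC content of the 250 bases before the start and 0.80 for that of the transcripts. The part of base composition in the members' differences was not tested beyond the fit with its trend removed, in which each of the 8 members with an unadjusted p under 0.05 had a smaller absolute log2 fold change than without that step.

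**Figure D4:**
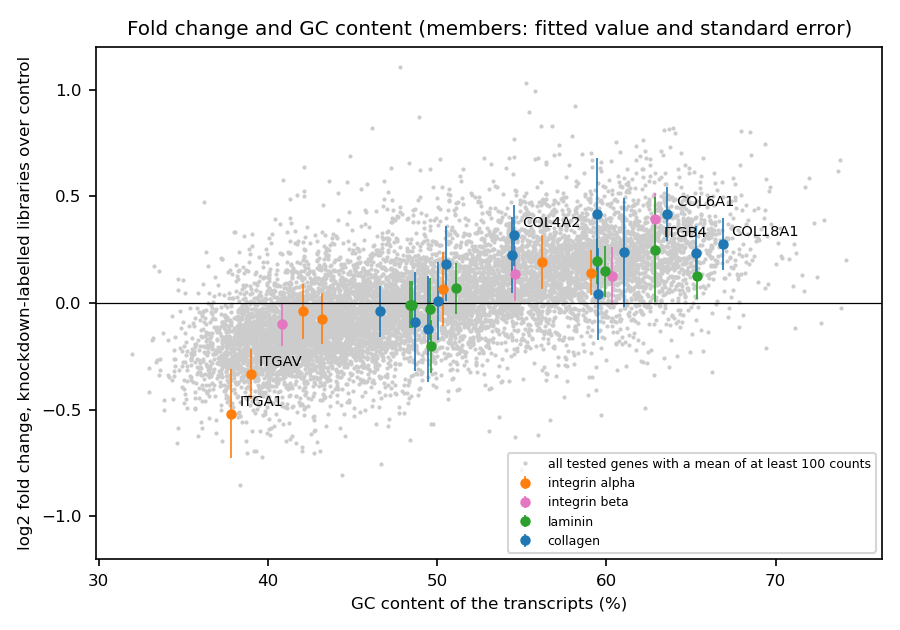
Log2 fold change of the libraries labelled PD-L1 knockdown over the control (with SE bars for the members) against the GC content of the transcripts, for the 33 members with a mean of at least 100 counts (coloured by family) over all tested genes at that count (grey, 10859 genes, 8 of them outside the axis). The members follow the slope of the grey points, from ITGA1 (37.8% GC, -0.52) to COL18A1 (66.9% GC, 0.28).

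The libraries labelled PD-L1 knockdown also differed from each other. Over the 33 members the SD of the log2 ratio to the control was 0.21 for library 1 and 0.24 for library 2, and that of library 2 over library 1 was 0.18. The median log2 ratio was 0.022 for library 1 and 0.16 for library 2, with 18 and 24 of the 33 above 1. Over all 10861 tested genes at that count the SDs were 0.21 and 0.28 to the control and 0.20 between the libraries, the medians were 0.0064 and 0.0024, and 5590 and 5461 genes were above 1.

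Genes around the integrins and the matrix were given by lists of 20 adhesion adaptors, 13 other matrix proteins, 8 other matrix receptors and 19 genes that make or cross-link collagen. In that order, 20, 11, 8 and 19 genes of the lists were tested. Of them 1 passed the adjusted p, against 0.247% of all tested genes called higher and 0.106% called lower. It was CD151, a tetraspanin that binds the laminin-binding integrins ITGA3 and ITGA6 at the cell surface. CD151 had 2766, 3449 and 4426 counts, with ratios of 1.25 (1.19 to 1.32) and 1.49 (1.42 to 1.57) and a log2 fold change of 0.46 ± 0.12 (SE, adjusted p = 0.0361). Its transcripts are 62.2% GC, and with the GC trend removed its log2 fold change was 0.27 (adjusted p = 0.505). Over the alternatives its adjusted p ran from 0.0363 to 1.00, and it was 0.144 with at least 30 counts required and 1.00 with DESeq2.

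By an unadjusted p under 0.05, 3 adaptors were higher and 0 lower, with 20 tested. For this and the other lists the shares over all tested genes are 6.82% higher and 4.92% lower, and with so few genes nothing particular to a list is read from its count. The median GC content of the lists' genes was 54.8% for the adaptors, 51.5% for the matrix proteins, 58.1% for the receptors and 57.7% for the collagen-making genes. Of these medians 3 of the 4 lie in the class above 54.0% GC, where 87.3% of all genes averaging 100 counts or more were above 0. The part of base composition in the counts of the lists was not tested. The most counted were the talin gene TLN1, which switches integrins on (16245, 16479 and 19116 counts, log2 fold change 0.083 ± 0.10, SE), the scaffold gene PXN (6639, 7098 and 8295 counts, 0.16 ± 0.11, SE) and VCL, which links talin to actin (6387, 6303 and 7233 counts, 0.035 ± 0.11, SE). None of these 3 passed the test. Of the other matrix proteins 1 of 11 tested was higher and 0 lower, against 6.82% and 4.92% of all tested genes, namely AGRN, the proteoglycan agrin, with 11174, 12071 and 16076 counts (log2 fold change 0.28 ± 0.11, SE, adjusted p = 0.250). HSPG2, the basement membrane proteoglycan perlecan, had 3988, 3771 and 4423 counts, with a log2 fold change of -0.010 ± 0.11 (SE).

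Of the other receptors 3 of 8 were higher and 0 lower at an unadjusted p under 0.05, CD151 among them, against 6.82% and 4.92% of all tested genes. SDC1, the proteoglycan syndecan, had 7170, 7822 and 9099 counts, with a log2 fold change of 0.19 ± 0.11 (SE, adjusted p = 0.500). Of the collagen-making genes 3 of 19 were higher and 0 lower, against the same shares of all tested genes. P4HB, a subunit of prolyl 4-hydroxylase, had 8570, 9304 and 10912 counts (log2 fold change 0.19 ± 0.11, SE). PLOD2, which hydroxylates collagen lysines, had 9312, 8249 and 8961 counts, the control being the highest library (log2 fold change -0.16 ± 0.11, SE). Neither passed the test.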

How the data were processed

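The authors deposited, for each of the 3 libraries, counts of reads per gene for 58735 genes, not normalized, and FPKM values. Each deposited FPKM was checked to equal the count divided by gene length and by 1 constant per library, within 0.1% for 100% of genes, and was used only to compare levels between genes. Per the labels' processing notes, Bowtie2 2.0.6, TopHat2 2.0.9, Cufflinks 2.1.1 and Cuffdiff 2.1.1 were used. Gene positions are those of GENCODE (GRCh38). Use of strand and treatment of shared reads are not given in the sources used here, so overlapping genes are marked.

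Genes with at least 10 counts in all (19849) were fitted with edgeR 4.0.16 in R 4.3.3 (TMM, quasi-likelihood F-test, Benjamini-Hochberg adjustment over all of them), comparing both libraries labelled PD-L1 knockdown with the control. There is 1 control library, and the fit has 1 residual degree of freedom. Its prior degrees of freedom were infinite, so a gene's own spread took no part in its p-value. The p-values rest on a spread pooled over genes between the libraries labelled PD-L1 knockdown, which were made with different hairpins. The SE of a log2 fold change was derived from the F-test, as the absolute log2 fold change over the square root of F. It therefore adds nothing to the p-value. Ratios of single libraries carry exact 95% binomial intervals (scipy 1.17.1), which like the floor of 3 counts cover counting error only. Members, lists and tests were chosen with earlier results of these data known. Named were the members with the highest FPKM in each class, those with an unadjusted p under 0.05 or with both intervals on 1 side of 1, the subunits of laminin-332 and its receptors, the alphaV integrins, collagen IV and, in the related lists, the called and most counted genes. The pairs and trimers of subunits and the collagen classes were written after values were seen. Alternatives were other scalings, count minimums of 1 and 30, DESeq2 1.42.0, robust fitting, removal of the GC or length trend (20 classes), and leaving out each library labelled PD-L1 knockdown. The functions were tested on simulated data. Single values of some genes are not reported here.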

Additional observations from a re-analysis of the deposited data

How the results depend on the processing

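No paired analysis was possible because there was only 1 control library for the 2 libraries labelled PD-L1 knockdown. No member passed the adjusted p under any of the 8 refits, where the lowest was 0.0801 (ITGB4, length trend removed). The count of members at an unadjusted p under 0.05 went from 8 to 3 with DESeq2, which called 6 genes in all at the adjusted p against 70 with edgeR. The count past the fold threshold, lower, went from 2 to 1 with at least 30 counts, which removes COL24A1, and to 0 with DESeq2. With the GC trend removed 10 log2 fold changes of named members changed sign, COL12A1 to 0.032, COL27A1 to -0.11, COL6A2 to -0.012, ITGA3 to -0.0088, ITGA6 to 0.041, ITGB1 to 0.068, ITGB2 to -0.051, LAMA3 to 0.015, LAMA5 to -0.12 and LAMC1 to 0.015. With the length trend removed 3 did, COL12A1 to 0.044, LAMA3 to 0.074 and LAMC1 to 0.035. Leaving out library 1 or 2 gave values with no test, and the log2 fold changes that turned sign with the library left out ranged from -0.11 to 0.033 for COL12A1, -0.22 to 0.22 for COL14A1, -0.098 to 0.75 for COL16A1, -0.037 to 0.46 for COL1A1, -0.67 to 0.0063 for COL26A1, -0.017 to 0.036 for COL4A4, -0.40 to 0.0033 for COL8A2, -0.080 to 0.061 for LAMA3, -0.00079 to 0.25 for LAMA5 and -0.070 to 0.051 for LAMC1. The adjusted p of CD151, for which the alternatives were added after its value was seen, was above 0.05 in 3 of them (at least 30 counts, DESeq2, GC trend removed). The other alternatives, on scaling, count minimum, DESeq2 and robust fitting, changed the sign of none of the 39 member genes recomputed (36 with at least 30 counts), which leave out ITGA2, ITGAE, ITGB7, ITGAX and ITGAD among others. The integrin alpha median became -0.037 with at least 30 counts.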

Other observations

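ILK, the integrin-linked kinase gene and one of the adhesion adaptors, was listed at 25, 22 and 37 counts, whereas other adaptors such as TLN1 had 16245, 16479 and 19116. It was singled out after its values were seen. TAF10, on the opposite strand, overlaps 78.5% of ILK's exonic bases and had 108, 139 and 179 counts. Whether reads of ILK were lost to this overlap in the counting was not tested.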
